A study of Homo sapiens with 6 samples.

Results

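The 32 genes described here encode enzymes of cholesterol and fatty acid synthesis and the proteins that set their expression. They were taken by name from a list that was chosen with earlier results of these data known. Each name matched 1 row of the deposited count and FPKM tables, which hold 58735 genes. Polyadenylated RNA was sequenced from MOLT-3, an established human T-cell leukaemia line. Compound E, which stops gamma-secretase from releasing the active part of NOTCH receptors, was given to the cells of 3 libraries, and its solvent DMSO to those of the other 3. All 6 come from 1 cell line, and the sources used here give neither the dose nor the length of treatment. Whether the replicates were separate cultures is not stated, so p-values cover the spread between these libraries alone, and that spread may be technical.

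Cholesterol is built from acetyl-CoA through mevalonate, farnesyl diphosphate, squalene and lanosterol, and fatty acids are built from the same precursor by carboxylation, chain growth and desaturation. The transcription factors SREBP1 and SREBP2, products of SREBF1 and SREBF2, drive most of these genes. SCAP escorts the SREBP precursors out of the endoplasmic reticulum when sterols are low, and the INSIG proteins hold them back when sterols are high, while INSIG1 is itself an SREBP target. Growing T cells raise this programme to build membranes.

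Total counts were 18154037 to 18973990 in the compound E libraries and 17316138 to 19845114 in the DMSO libraries. Each of 4 known NOTCH targets was lower with compound E, among them DTX1, at 7.05 ± 1.03 CPM with compound E and 171 ± 6.85 CPM with DMSO (SD, n = 3 each). CPM are counts adjusted for library size, with TMM factors. All 8 markers of T-lineage cells passed the filter on low counts and summed to 1968 to 2015 CPM with compound E and 2192 to 2238 CPM with DMSO, with members on both sides: CD1A rose (log2 fold change 0.70), and CD7 (-0.73), PTCRA (-0.69), CD3D (-0.34), CD5 (-0.21), CD3E (-0.18) and LCK (-0.07) fell, at edgeR adjusted p of 0.0166 or less. The 4 myeloid markers together stayed at or under 0.879 CPM in every library. B-lineage markers summed to 13.4 to 14.7 CPM with compound E and 13.6 to 14.9 CPM with DMSO, nearly all from CD79A, and fibroblast markers to 8.61 to 10.6 CPM with compound E and 10.9 to 12.5 CPM with DMSO, all from COL1A1. Mitochondrial genes took 4.60% to 5.22% of counts with compound E and 5.18% to 5.34% with DMSO; the part of these differences in the results below was not tested. Compound E replicate 3 stood somewhat apart, with a chi-square per degree of freedom of 2.68 and 2.77 against the other compound E libraries, where the other pairs within a group gave 1.66 to 1.89. In such bulk RNA, fewer cells that express a gene and less RNA per cell cannot be told apart.

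All 32 genes passed the filter on low counts. With compound E 16 rose, 3 fell and 13 were not called, where a call is a Benjamini-Hochberg adjusted p under 0.05 over 16926 genes in edgeR's quasi-likelihood F-test. The background of such calls was 38.3% of all tested genes, 18.9% higher and 19.4% lower. Of the members 50% rose and 9.38% fell. Because the list was chosen with earlier results of these data known, this difference was not tested. The median log2 fold change was 0.20 over the members and -0.0034 over all tested genes, and 25 of the 32 values were above 0. In 22 of the 32 the 3 libraries of a group lay wholly above or below those of the other, against 46.8% of all tested genes. The changes were small: all 19 called members changed by less than 1.5-fold, which also holds for 77.3% of all called genes. Without compound E replicate 3 the counts were also 16 higher and 3 lower, but not of the same genes: NSDHL lost its call (edgeR adjusted p = 0.195) and MSMO1 gained one (adjusted p = 0.0353).

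**Figure D1:**
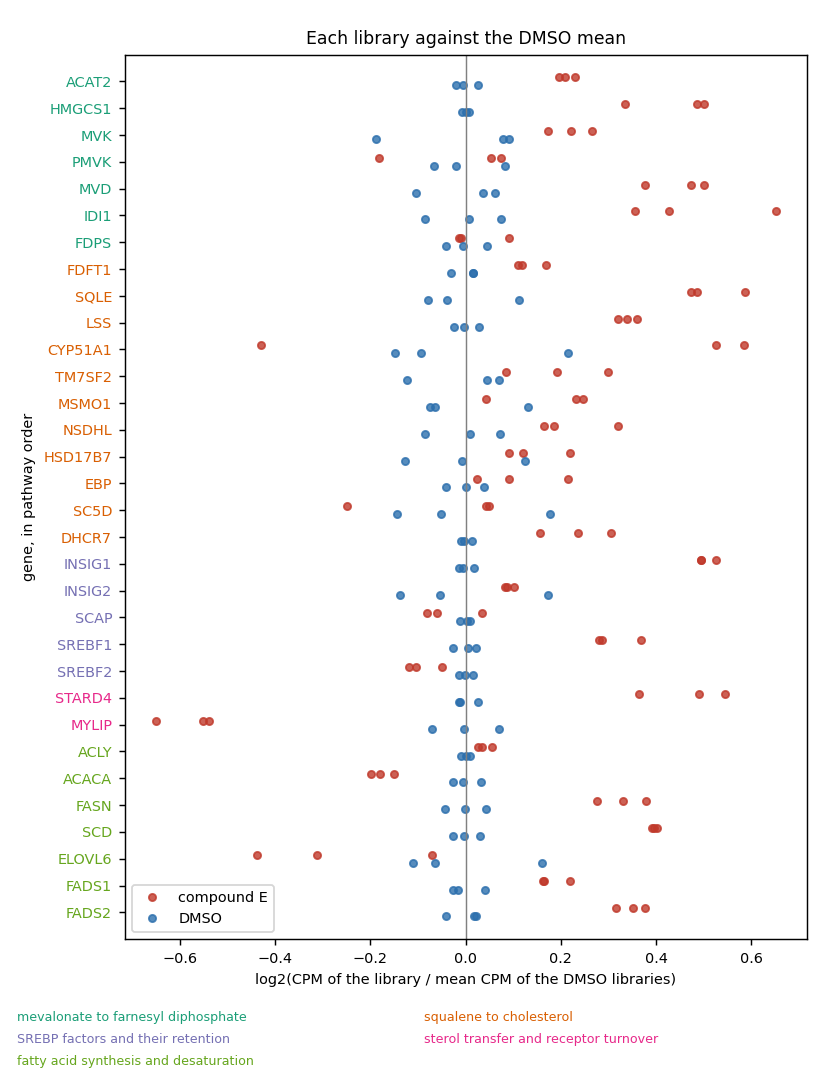
Each point is 1 library, as the log2 ratio of its CPM to the mean CPM of the 3 DMSO libraries, with genes in pathway order and their roles in colour. The compound E points lie to the right of all DMSO points in the 16 genes that rose, and to the left of them in SREBF2, MYLIP and ACACA.

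INSIG1, which retains SCAP and the SREBP precursors in the endoplasmic reticulum, had the clearest rise among the regulators. It had 428, 419 and 419 CPM in the compound E libraries, against 295, 296 and 301 CPM in the DMSO libraries. The groups were far apart and each was tight, and the rise was 1.42-fold (log2 fold change 0.50 ± 0.0265 SE, edgeR adjusted p = 7.33e-19). Its paralogue INSIG2, which does the same work but is not known as an SREBP target, had 29.9, 29.5 and 29.6 CPM with compound E, against 31.4, 25.3 and 26.9 CPM with DMSO. DMSO replicate 1 was the highest of all 6 libraries for INSIG2, the groups overlapped, and the gene was not called (0.09, 95% interval -0.04 to 0.22). Single DMSO libraries moved the INSIG2 value both ways: it was 0.19 and called without DMSO replicate 1 (edgeR adjusted p = 0.0291) but 0.023 without DMSO replicate 2 (adjusted p = 0.844). Per length, the FPKM of INSIG1 was 15.5, 15.3 and 15.3 times that of INSIG2 with compound E, against 10.1, 12.7 and 12.1 times with DMSO, a ratio computed after the values were seen.

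The 2 SREBP genes went in opposite directions. SREBF1, whose product mainly drives fatty acid genes, had 468, 466 and 495 CPM with compound E, against 377, 385 and 389 CPM with DMSO, a 1.24-fold rise (log2 fold change 0.31 ± 0.0275 SE, edgeR adjusted p = 3.16e-12). SREBF2, whose product mainly drives cholesterol genes, had 284, 287 and 298 CPM with compound E, against 312, 309 and 306 CPM with DMSO. The SREBF2 groups did not overlap, but the gap was narrow, and the fall was 1.07-fold (-0.09 ± 0.0278 SE, edgeR adjusted p = 0.00776). Its call was lost without compound E replicate 1 (adjusted p = 0.0618) and in limma on unfiltered log2 FPKM (adjusted p = 0.0817). The FPKM of SREBF2 was 0.645, 0.655 and 0.640 times that of SREBF1 with compound E, against 0.881, 0.851 and 0.835 times with DMSO. SCAP, the escort of both, was not called, at -0.03 with an interval of -0.10 to 0.04.

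Part of the SREBF1 transcript cannot be assigned by position alone. The gene (ENSG00000072310) lies at 17810399 to 17837002 of chromosome 17 on GRCh38, minus strand, and 556 of its 8030 exon bases also lie in exons of RAI1, a nuclear regulator gene on the opposite strand. RAI1 was itself higher with compound E (log2 fold change 0.27, edgeR adjusted p = 1.86e-08). The sources used here do not say whether the authors counted by strand, and the part of RAI1 reads in the SREBF1 counts was not tested. INSIG1 (ENSG00000186480, chromosome 7, 155297776 to 155310235, plus strand) and SCAP share no exon base with another annotated gene.

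The promoter windows of 6 members are shown, all of them with an NF-Y box. They are INSIG1, HMGCS1, MVD and STARD4, which rose most among members with a window and that box, and SREBF2 and MYLIP, which fell. The choice does not represent the members: ACACA, which also fell (-0.18), and SREBF1, which rose (0.31), have windows without the box. No window of an uncalled member is shown. SREBP binds with helpers, foremost NF-Y, which recognises CCAAT. Sequences are RefSeq's, on GRCh38.p14, 250 bases before to 50 after the annotated start, at chr7:155297628-155297927 (plus), chr5:43313363-43313662 (minus), chr16:88663042-88663341 (minus), chr5:111512486-111512785 (minus), chr22:41832855-41833154 (plus) and chr6:16128836-16129135 (plus). Capitals mark CCAAT on either strand and, in SREBF2, the sterol regulatory element core TCACNCCAC.
INSIG1: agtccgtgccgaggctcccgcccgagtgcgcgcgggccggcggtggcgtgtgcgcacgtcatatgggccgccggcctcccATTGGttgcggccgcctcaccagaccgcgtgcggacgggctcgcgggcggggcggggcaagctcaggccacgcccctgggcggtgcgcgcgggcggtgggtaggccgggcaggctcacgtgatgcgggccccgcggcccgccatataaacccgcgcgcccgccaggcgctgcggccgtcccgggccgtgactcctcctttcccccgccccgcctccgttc
HMGCS1: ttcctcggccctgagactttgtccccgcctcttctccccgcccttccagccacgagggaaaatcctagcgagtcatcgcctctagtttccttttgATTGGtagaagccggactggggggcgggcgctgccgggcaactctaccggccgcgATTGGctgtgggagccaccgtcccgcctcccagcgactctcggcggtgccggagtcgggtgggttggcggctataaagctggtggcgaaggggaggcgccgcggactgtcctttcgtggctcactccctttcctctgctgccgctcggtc
MVD: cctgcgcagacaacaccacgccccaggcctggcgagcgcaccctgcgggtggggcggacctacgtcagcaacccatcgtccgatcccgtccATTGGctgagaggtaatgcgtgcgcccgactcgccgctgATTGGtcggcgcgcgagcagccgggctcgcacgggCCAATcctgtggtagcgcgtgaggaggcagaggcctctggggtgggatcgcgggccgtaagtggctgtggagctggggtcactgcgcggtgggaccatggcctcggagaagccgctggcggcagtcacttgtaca
STARD4: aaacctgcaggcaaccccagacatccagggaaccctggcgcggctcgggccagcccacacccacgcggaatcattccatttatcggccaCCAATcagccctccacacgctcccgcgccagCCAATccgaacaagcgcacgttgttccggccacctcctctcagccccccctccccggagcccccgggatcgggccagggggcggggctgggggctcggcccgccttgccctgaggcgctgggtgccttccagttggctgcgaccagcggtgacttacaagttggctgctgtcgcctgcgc
SREBF2: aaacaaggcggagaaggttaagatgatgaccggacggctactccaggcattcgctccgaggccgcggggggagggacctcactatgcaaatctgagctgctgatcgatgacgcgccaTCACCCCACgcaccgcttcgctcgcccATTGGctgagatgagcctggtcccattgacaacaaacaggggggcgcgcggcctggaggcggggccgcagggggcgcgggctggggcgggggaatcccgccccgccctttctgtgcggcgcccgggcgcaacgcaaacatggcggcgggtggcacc
MYLIP: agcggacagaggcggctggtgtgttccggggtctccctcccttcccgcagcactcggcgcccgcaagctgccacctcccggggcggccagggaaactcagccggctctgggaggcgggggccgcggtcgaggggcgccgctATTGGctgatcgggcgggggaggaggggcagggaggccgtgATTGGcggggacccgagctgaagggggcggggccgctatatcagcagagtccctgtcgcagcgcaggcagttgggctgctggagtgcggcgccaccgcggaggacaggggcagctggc

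Windows were found for 28 of the 32 members, matched by symbol alone, so a window can miss the counted gene. ACAT2, FDFT1, SQLE and FASN had no window, and all of them rose. That of IDI1, at 1056655 to 1056954 of chromosome 10, lies outside the counted gene, at 1039152 to 1049170. It is still included below, as a window without CCAAT of a member that rose. CCAAT, read on both strands, was present in 18 of the 28 (64.3%), against 35.7% of 27305 promoter windows of the same length and 36.5% of the 10538 that belong to tested genes. It was in 8 of 12 windows of members that rose, 2 of 3 of those that fell and 8 of 13 of those not called. NSDHL and MVK held 5 matches each, and in NSDHL 2 of the 5 overlap as a palindrome. The SRE core TCACNCCAC was in 1 of the 28 windows, that of SREBF2 at -133 to -125 from the start, and in 1.15% of all windows. The E-box CACGTG, which SREBP can also bind, was in 4 members, INSIG1, LSS, SCAP and SC5D, and in 7.43% of all windows (10.3% of those of tested genes). The GC box GGGCGG of SP1 was in 26 members and in 44.6% of all windows (69.0% of those of tested genes). These are letter matches and not measured binding.

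**Figure D2:**
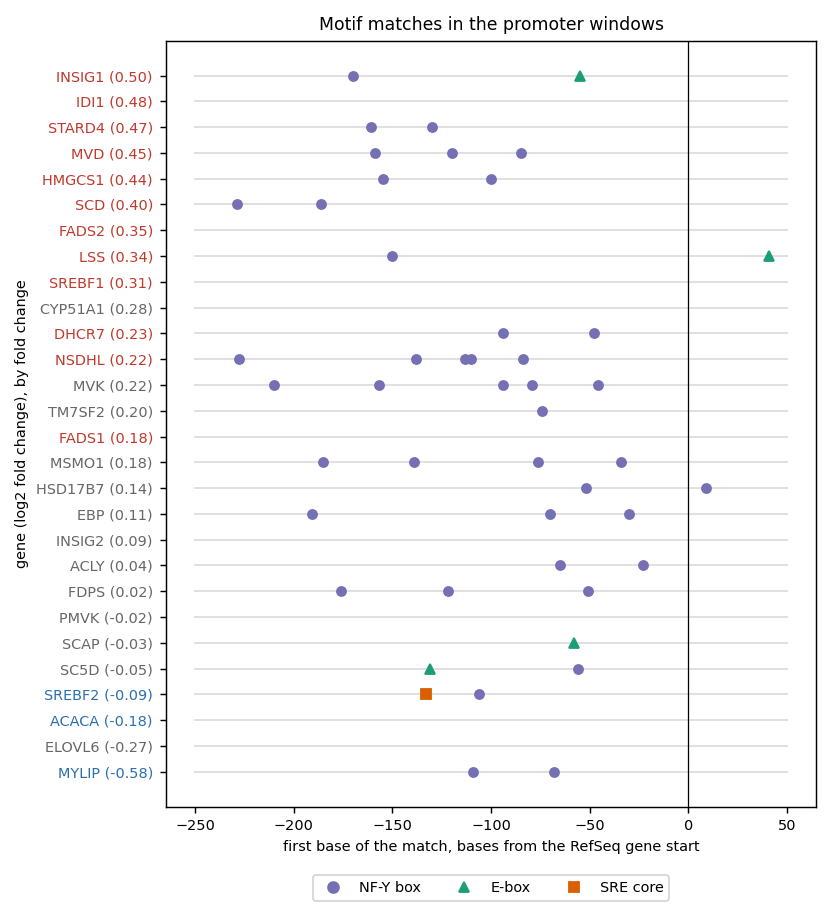
First bases of matches to the NF-Y box (CCAAT), the E-box (CACGTG) and the SRE core along the 28 promoter windows, in bases from the RefSeq gene start, with genes from the highest fold change at the top to the lowest at the bottom. NF-Y boxes appear in 18 of the 28 rows, with red (higher), blue (lower) and grey (not called) gene names alike. Rows without one include IDI1 near the top and ELOVL6 near the bottom, and the SRE core appears in SREBF2.

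The mevalonate branch had 4 genes of 7 higher and 0 lower, at a median log2 fold change of 0.22. Over all tested genes 18.9% were higher and 19.4% lower, so with 7 genes the 0 lower says little by itself. HMGCS1, the HMG-CoA synthase of the cytosol, had 57.8, 58.4 and 52.0 CPM with compound E, against 41.3, 41.1 and 41.5 CPM with DMSO (0.44 ± 0.0501 SE, edgeR adjusted p = 2.05e-09). MVD, which turns mevalonate diphosphate into isopentenyl diphosphate, had 47.3, 44.2 and 48.2 CPM with compound E, against 35.0, 35.6 and 31.7 CPM with DMSO (0.45 ± 0.0543, edgeR adjusted p = 9.35e-09). Neither gene's groups came near each other. IDI1, the isomerase of isopentenyl diphosphate, had 43.3, 53.2 and 45.5 CPM with compound E, against 31.9, 34.0 and 35.6 CPM with DMSO (0.48 ± 0.0608, edgeR adjusted p = 2.06e-08), with compound E replicate 2 the highest. ACAT2, the thiolase that joins acetyl-CoA units, rose by 15.8% (0.21 ± 0.0405, edgeR adjusted p = 4.59e-05).

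The 3 other genes of the branch were not called. MVK, mevalonate kinase, had 12.6, 12.2 and 12.9 CPM with compound E, against 11.5, 11.4 and 9.46 CPM with DMSO. Its groups did not overlap and its value of 0.22 was as large as that of ACAT2, but with counts of 164 to 244 per library its interval ran from 0.03 to 0.40 (edgeR adjusted p = 0.0709). Without DMSO replicate 3, its lowest library, MVK was at 0.14 (edgeR adjusted p = 0.340), while ACAT2 stayed between 0.20 and 0.23 whichever library was left out. PMVK, phosphomevalonate kinase, and FDPS, farnesyl diphosphate synthase, lay at -0.02 (interval -0.15 to 0.12) and 0.02 (interval -0.06 to 0.10), and their groups overlapped. FDPS is well counted, with 1229 to 1456 counts per library, so a rise of the size seen in HMGCS1 lies outside its interval.

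From squalene to cholesterol, 5 of 11 genes rose while 0 fell, against 18.9% higher and 19.4% lower over all tested genes. The median log2 fold change was 0.20. SQLE, squalene monooxygenase, rose by a log2 fold change of 0.51 ± 0.0568 SE (edgeR adjusted p = 1.06e-09), with 42.5, 45.7 and 42.2 CPM with compound E, against 32.8, 28.8 and 29.6 CPM with DMSO. LSS, which closes the sterol rings to give lanosterol, had 130, 128 and 132 CPM with compound E, against 103, 105 and 101 CPM with DMSO (0.34 ± 0.0341, edgeR adjusted p = 1.08e-10). Both sets of libraries were well apart. The order of SQLE, INSIG1 and IDI1 at the top of the members changed with the library left out: without DMSO replicate 2, SQLE was at 0.47, INSIG1 at 0.50 and IDI1 at 0.49. FDFT1, squalene synthase, rose by less, 1.10-fold (0.13 ± 0.0320, edgeR adjusted p = 9.65e-04), with 161, 156 and 155 CPM with compound E, against 140, 145 and 145 CPM with DMSO.

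Later steps gave smaller values than SQLE and LSS, and most were not called, though DHCR7 and NSDHL lay above FDFT1. DHCR7, which acts near the end of the path, had 32.3, 29.1 and 30.8 CPM with compound E, against 26.4, 25.9 and 26.1 CPM with DMSO (0.23 ± 0.0598 SE, edgeR adjusted p = 0.00176). NSDHL, a decarboxylating dehydrogenase, was called at 0.22 (edgeR adjusted p = 0.0492), with 12.6, 12.8 and 14.1 CPM with compound E, against 11.8, 11.3 and 10.6 CPM with DMSO. That call was at the threshold and was lost in 13 of 17 alternatives, for example with the replicate block (adjusted p = 0.0675) and in DESeq2 (adjusted p = 0.147). It was also lost on leaving out any 1 library other than DMSO replicate 1 (adjusted p = 0.0521 to 0.195). TM7SF2, a sterol reductase, was not called at 0.20 (edgeR adjusted p = 0.0567), although its groups did not overlap, and MSMO1, a methyl oxidase, at 0.18, HSD17B7, a ketoreductase, at 0.14, and EBP, a sterol isomerase, at 0.11 were not called and their groups overlapped. In edgeR, TM7SF2 was called without compound E replicate 2 (adjusted p = 0.0267) or DMSO replicate 1 (0.0478), MSMO1 without compound E replicate 3 (0.0353) or DMSO replicate 3 (0.0394), and EBP without compound E replicate 2 (0.0190). Other libraries moved values the opposite way: EBP was 0.058 without compound E replicate 1 (edgeR adjusted p = 0.452), HSD17B7 was 0.083 without DMSO replicate 2 (adjusted p = 0.543), and MSMO1 was at its lowest, 0.14, also without DMSO replicate 2 (adjusted p = 0.277). SC5D, a desaturase, lay at -0.05 with an interval of -0.23 to 0.13.

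CYP51A1, the lanosterol demethylase, had only 17 to 33 counts per library and an FPKM of 0.415 ± 0.142 with compound E and 0.336 ± 0.0470 with DMSO (SD, n = 3 each), the lowest of the 32. Of its 3584 exon bases 83.2% also lie in exons of other annotated genes, and 2844 of them in AC000120.2, a protein-coding entry on the same strand that had 0 counts in all 6 libraries. Its own exon bases number 602, while its FPKM divides by all 3584. If reads from the shared stretch were left out, which was not tested, its counts and FPKM understate its level. The log2 fold change of CYP51A1 (ENSG00000001630, chromosome 7, 92112151 to 92134803, minus strand) was 0.28 with an interval of -0.26 to 0.83, and it was not called. With 1 library left out it ran from 0.12 without compound E replicate 2 (edgeR adjusted p = 0.820) to 0.55 without compound E replicate 3 (adjusted p = 0.132), and it was 0.15 without compound E replicate 1 (adjusted p = 0.760). ACAT2 also shares 52.3% of its exon bases, with genes on the opposite strand, among them 397 bases with TCP1, a chaperonin subunit gene that was higher too (0.12, edgeR adjusted p = 3.93e-04). TCP1 had 5949 to 7013 counts per library, against 1145 to 1434 for ACAT2. The part of TCP1 reads in the ACAT2 counts was not tested. HSD17B7 has a near copy, HSD17B7P2, with 67 to 95 counts per library, and the sources used here do not say how shared reads were counted.

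**Figure D3:**
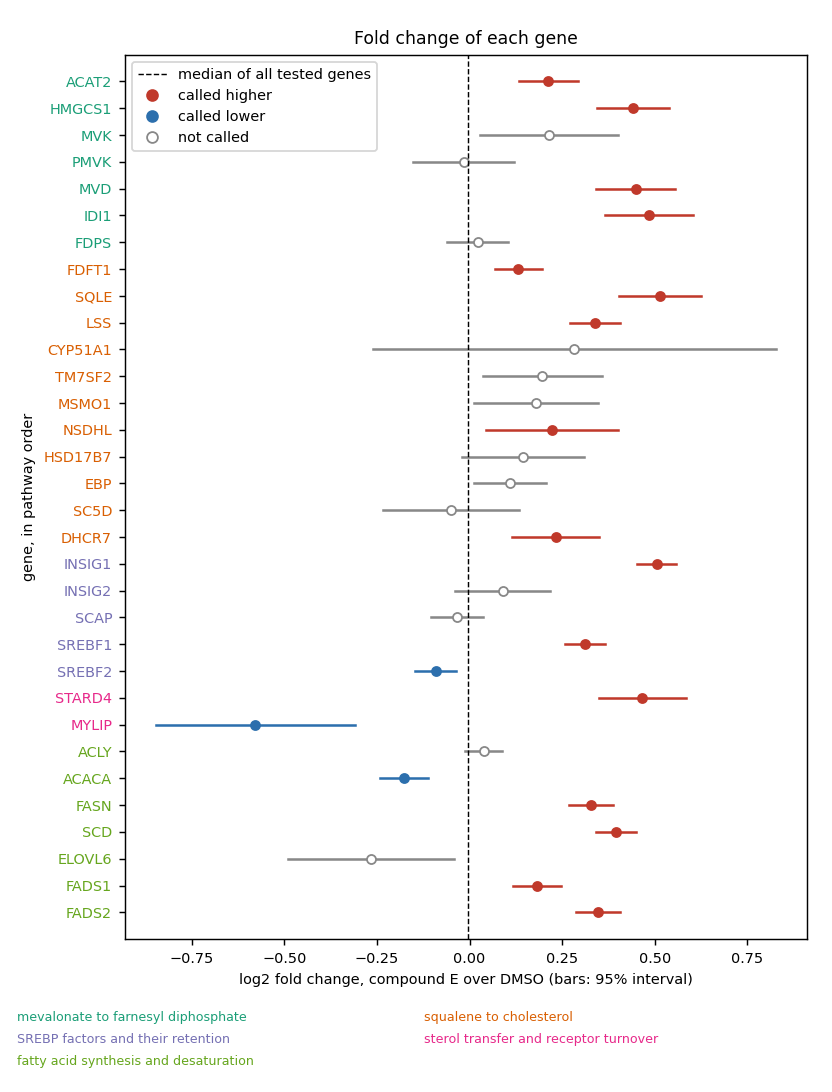
Log2 fold changes, compound E over DMSO, of the 32 genes in pathway order, with bars for the 95% interval; filled points were called and open ones were not, and the dashed line is the median of all tested genes. SQLE, INSIG1 and IDI1 lie farthest to the right, at 0.51, 0.50 and 0.48, MYLIP lies farthest to the left, at -0.58, and CYP51A1 has the widest bar.

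Sterol handling genes moved apart. STARD4, a soluble carrier that moves cholesterol between membranes, had 35.2, 36.6 and 32.3 CPM with compound E, against 24.9, 25.5 and 24.9 CPM with DMSO (0.47 ± 0.0600 SE, edgeR adjusted p = 3.50e-08). Its antisense neighbour STARD4-AS1, which shares 124 exon bases with it, was higher as well (0.31, edgeR adjusted p = 1.22e-06). STARD4-AS1 had 784 to 1082 counts per library, against 431 to 663 for STARD4. The part of STARD4-AS1 reads in the STARD4 counts was not tested. MYLIP, a ubiquitin ligase that marks lipoprotein receptors for destruction and is a target of the oxysterol receptor LXR, had 4.26, 3.98 and 4.30 CPM with compound E, against 5.95, 6.55 and 6.23 CPM with DMSO. The groups did not overlap, and the fall was 1.49-fold (-0.58 ± 0.137 SE, edgeR adjusted p = 7.41e-04), the largest change of the 32 in this fit. MYLIP (ENSG00000007944, chromosome 6, 16129125 to 16148248, plus strand) had 72 to 130 counts per library. On the log2(FPKM + 1) scale, which understates changes of low genes, its value was -0.36 and that of INSIG1, at 0.51, was larger in size.

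Of the 7 genes of fatty acid synthesis and desaturation 4 rose and 1 fell, against 18.9% higher and 19.4% lower over all tested genes. SCD, which introduces the double bond of oleic acid, had 296, 296 and 298 CPM with compound E, against 225, 230 and 221 CPM with DMSO. The spread within each group was far smaller than the gap (0.40 ± 0.0280 SE, edgeR adjusted p = 6.47e-15). FADS2 and FADS1, the desaturases of long polyunsaturated fatty acids, rose 1.27-fold and 1.13-fold (0.35 ± 0.0300 and 0.18 ± 0.0325, edgeR adjusted p = 1.89e-12 and 1.67e-05). The pair overlap on opposite strands of chromosome 11 and share 490 exon bases.

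FASN, the multidomain synthase of palmitate, had 306, 295 and 317 CPM with compound E, against 243, 251 and 236 CPM with DMSO (0.33 ± 0.0300 SE, edgeR adjusted p = 9.28e-12). ACACA, the acetyl-CoA carboxylase that supplies it with malonyl-CoA, went the other way, with 124, 127 and 123 CPM with compound E, against 140, 138 and 144 CPM with DMSO (-0.18 ± 0.0329, edgeR adjusted p = 3.24e-05). Neither gene shares exon bases with another gene, and in both the groups were apart. ACLY, which makes cytosolic acetyl-CoA from citrate, had 421, 423 and 429 CPM with compound E, against 416, 413 and 410 CPM with DMSO. Its groups did not overlap, but the gap was small and it was not called (0.04, interval -0.01 to 0.09, edgeR adjusted p = 0.257). ELOVL6, which lengthens palmitate to stearate, lay at -0.27 (interval -0.49 to -0.04) with overlapping groups and was not called (edgeR adjusted p = 0.0623). Leaving out 1 library moved ELOVL6 from -0.37, called, without compound E replicate 1 (edgeR adjusted p = 0.0229) to -0.18 without DMSO replicate 1 (adjusted p = 0.321), and it was -0.19 without compound E replicate 2 (adjusted p = 0.269).

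**Figure D4:**
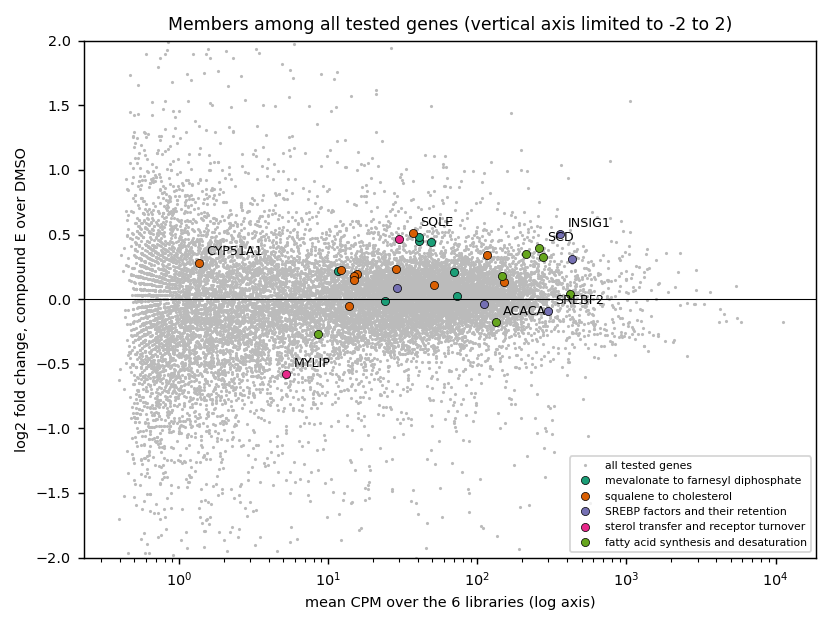
Log2 fold change, compound E over DMSO, against mean CPM (log axis) for all tested genes in grey and the 32 members in colour by role; 137 genes lie outside the vertical axis of -2 to 2. Most members sit above 0 and within the grey cloud, with SQLE at 0.51 and INSIG1 at 0.50, and MYLIP lies below 0 at -0.58.

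Levels per length were compared with the FPKM values the authors deposited. INSIG1 stood highest of the 32, at 115 ± 1.31 FPKM with compound E and 80.9 ± 0.828 FPKM with DMSO (SD, n = 3 each), above 98.1% of all tested genes. ACLY came next, at 81.1 ± 0.872 FPKM with compound E and 78.6 ± 0.627 FPKM with DMSO, and in the DMSO libraries the ranges of these 2 genes did not overlap, though they were close. SREBF1 followed at 59.2 ± 2.06 FPKM with compound E and 47.5 ± 0.735 FPKM with DMSO, then SCD at 55.2 ± 0.196 FPKM with compound E and 41.7 ± 0.837 FPKM with DMSO, and SREBF2 at 38.3 ± 0.993 FPKM with compound E and 40.6 ± 0.478 FPKM with DMSO. In the DMSO libraries the FPKM of SCD, 40.9 to 42.6, overlapped that of SREBF2, 40.2 to 41.1. At the low end was CYP51A1, whose FPKM may be understated because most of its exon bases are shared. Next came ELOVL6 at 1.06 ± 0.139 FPKM with compound E and 1.27 ± 0.133 FPKM with DMSO. MYLIP was at 1.37 ± 0.0569 FPKM with compound E and 2.04 ± 0.0957 FPKM with DMSO. MVK was at 1.93 ± 0.0607 FPKM with compound E and 1.65 ± 0.176 FPKM with DMSO. Summed over the 32 genes, FPKM was 660, 659 and 666 in the compound E libraries and 564, 564 and 558 in the DMSO libraries. The sum is weighted to abundant genes such as INSIG1 and does not describe each gene. INSIG1, INSIG2, SCAP, SREBF1 and SREBF2 alone summed to 237, 234 and 241 FPKM with compound E, against 193, 192 and 194 FPKM with DMSO.

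**Figure D5:**
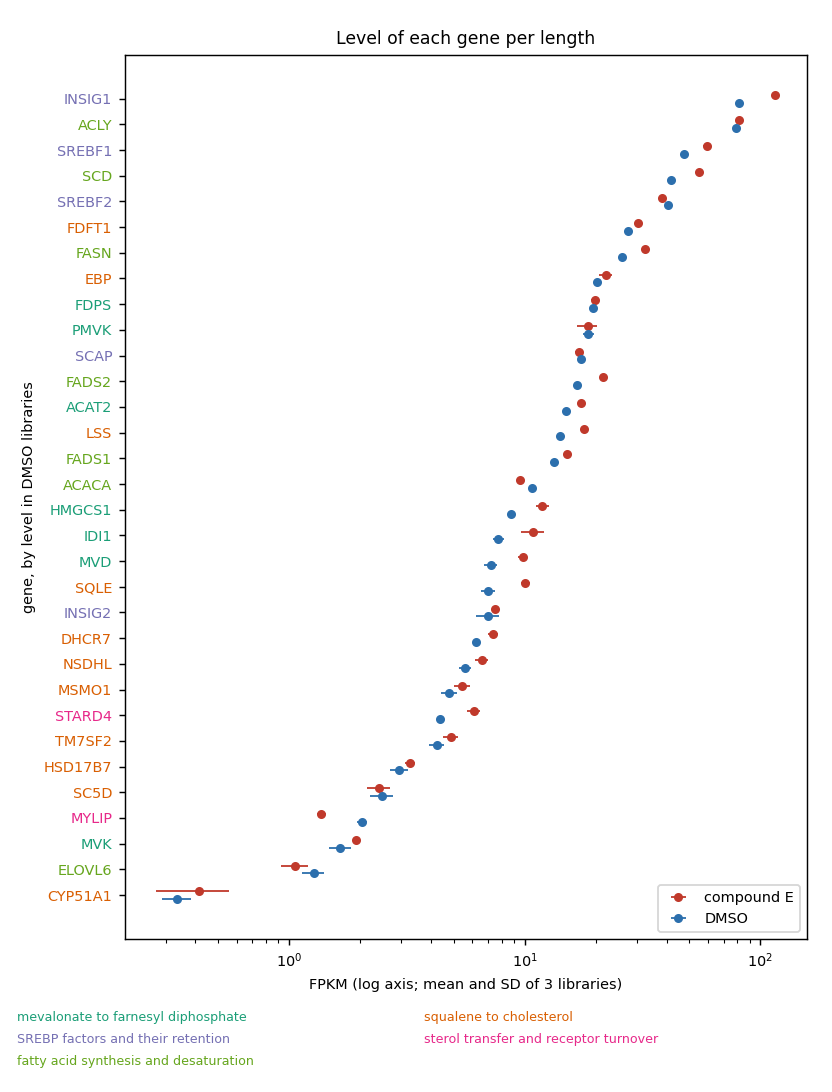
FPKM of each gene on a log axis, as mean and SD of 3 compound E and 3 DMSO libraries, ordered by the level with DMSO. INSIG1, ACLY and SREBF1 are at the top and CYP51A1, at 0.336 FPKM with DMSO, is at the bottom. The CYP51A1 value may be understated, as most of its exon bases are shared. The distance between the paired points is small beside the range over genes.

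Genes around these paths gave mixed counts. Of 10 genes that cleave SREBPs or degrade sterol-regulated proteins, 4 rose and 2 fell. MBTPS1, the site-1 protease that makes the first cut in SREBPs, fell (log2 fold change -0.34), with 185, 182 and 175 CPM with compound E, against 232, 229 and 225 CPM with DMSO, and C12orf49, a factor that this protease needs, rose (0.29). VCP, an ATPase that pulls proteins out of the membrane, rose too (0.30). Of 13 genes of the isoprenoid branches 1 rose, PDSS1 at 0.37, and 2 fell, GGPS1, which makes geranylgeranyl diphosphate, at -0.37 and PDSS2 at -0.39. PDSS1 and PDSS2 encode the 2 subunits of 1 enzyme of ubiquinone synthesis.

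Among 17 tested genes of fatty acid supply, elongation and activation 6 rose and 3 fell. MID1IP1, which promotes the assembly of acetyl-CoA carboxylase, fell most clearly (log2 fold change -0.72 ± 0.0369 SE, edgeR adjusted p = 2.98e-19). It had 71.0, 72.6 and 74.7 CPM with compound E, against 119, 119 and 122 CPM with DMSO. ACSL3, which activates fatty acids, and HACD3, of elongation, rose (0.22 and 0.20). In the list of LXR, sterol storage and export 0 of 10 tested genes rose and 3 fell, SOAT1, which esterifies cholesterol (-0.25), NPC2, a lysosomal sterol carrier (-0.24), and the exporter ABCG1 (-0.11). Glycerolipid synthesis genes rose in 3 of 15 and fell in 4, with PCYT2 at 0.35, AGPAT3 at -0.72 and LPIN1 at -0.25. Fatty acid oxidation genes rose in 3 of 16 and fell in 4, with the carnitine carrier SLC25A20 at 0.47 and HADHA, of the mitochondrial trifunctional protein, at -0.16. The medians of these 6 lists lay between -0.04 and 0.05, near that of all tested genes. Their shares of called genes ran from 23.1% to 60%, against 38.3% of all tested genes, 18.9% higher and 19.4% lower. Glycerolipid synthesis had 20% higher and 26.7% lower, and fatty acid oxidation 18.75% and 25%, near that background. The 30% lower in the LXR list rests on only 10 tested genes, and no list was tested. The largest edgeR adjusted p (Benjamini-Hochberg) among the genes named from these lists was 0.00862, for ABCG1.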

How the data were processed

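RNA of 3 compound E and 3 DMSO libraries was compared, with groups and replicate numbers from the titles in the labels. The deposited table of counts holds whole-number read counts per gene, not normalised, per the file headers. The authors also deposited FPKM values, each equal to the count over gene length and 1 divisor per library. The submitters' processing notes name HISAT2 2.0.5, featureCounts 1.5.0-p3 and DESeq2 1.16.1, with no role. The sources used here give no build, strand setting or treatment of reads with several matches. All 58735 gene IDs had the same position and name in GENCODE release 29, so coordinates and exon overlaps are on GRCh38.

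Counts were tested in R 4.3.3 with edgeR 4.0.16 (filterByExpr, TMM, quasi-likelihood F-test, treatment as the only term), with Benjamini-Hochberg adjustment over 16926 genes. The script was tested on simulated counts, with changed genes drawn from all levels. It called 61.7% of 1.2-fold changes, 70.8% of 1.5-fold and 91.7% of 2-fold changes, and 5.42% of its calls were false. The simulation changed 200 genes, while 6484 were called in the data, so its rates need not hold for the members. A change in a member with few counts can still go uncalled, as that of MVK did at 0.22. Standard errors are the log2 fold change divided by the square root of F. CPM use total counts times TMM factors. Alternatives used other scalings and filters, DESeq2 1.42.0, limma 3.58.1 (voom, and log2 FPKM with pseudocounts of 1 and 0.1), a replicate block and each library left out. Log2 values were computed here, and figures were drawn with matplotlib 3.10.9.

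The members, lists and motifs were chosen with earlier results of these data known, so no test was run over a list. All members are named, and of each related list up to 3 called genes with the smallest p, of which 1 is not reported here; genes whose exons overlap a member are named where the values bear on it. Of the members, counts ran from 17 to 9341 per library, and precision follows them.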

Additional observations from a re-analysis of the deposited data

How the results depend on the processing

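Of 543 values of single members under the alternatives, 515 kept their direction and their side of the threshold, 15 lost the call, 8 gained it and 5 changed sign. For 22 members, 15 called higher, 2 called lower and 5 not called, this held in all alternatives run. The call of NSDHL was lost in 13 of 17 (adjusted p up to 0.195) and that of SREBF2 in 2. Calls were gained for TM7SF2, MSMO1, ELOVL6, EBP and INSIG2, in 1 or 2 alternatives each. Sign changes occurred only in uncalled genes when 1 library was left out, where the log2 fold change of PMVK ran from -0.058 to 0.063, that of FDPS from -0.011 to 0.048 and that of SC5D from -0.12 to 0.052. SCAP, which kept its sign, ran from -0.07 to -0.01. CYP51A1 had no value with the filter of 5 CPM in 3 libraries. Over all genes 6484 were called, against 4002 in limma on unfiltered log2 FPKM, which tested 33506 genes, 4949 in DESeq2 and 5671 to 6068 with 1 library left out. Members called higher ran from 15 to 18 and members called lower from 2 to 4.

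With the replicate number as a block, 6138 genes were called, 15 members higher and 3 lower, and the member that lost its call was NSDHL (0.22). The same-numbered libraries did not deviate together, with correlations of 0.0031, -0.05 and -0.0023 over 11033 genes, so the numbers are not taken as pairs. Few counts limit the precision of some members, above all CYP51A1, MYLIP, ELOVL6 and MVK. The part of shared exons in the few counts of CYP51A1 was not tested.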
